A study of Saccharomyces cerevisiae with 26 samples.

Results

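The genes described here encode 9 mannoproteins that are built covalently into the yeast cell wall. Of these, 6 are known as wall proteins of anaerobic cells, namely DAN1, DAN4, TIR1, TIR2, TIR3 and TIR4, and 3 as wall proteins of aerobic or stressed cells, namely CWP1, CWP2 and SED1. They were chosen by gene symbol, and each has 1 probe set on the array. All 9 belong to the 5656 genes with a probe set of their own and to the 5369 that passed a filter on low signals. DAN1 passed that filter only through late arrays after the pulse, so that its being measured at all depended on those arrays.

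The data are 26 Affymetrix arrays of Saccharomyces cerevisiae total RNA, 13 for each of a pair of haploid MATa MAL2-8c SUC2 strains. The reference strain is the prototrophic CEN.PK113-7D, and the deletion strain lacks SFP1 (sfp1Δ::KlLEU2) and carries a mutant leu2 allele, so that it differs from the reference at LEU2 too. Each grew with air in glucose-limited chemostats held at 30 °C and pH 5.0, stirred at 800 rpm and diluted at 0.10 per h, and steady state was sampled in 3 independent cultures. Nitrogen was then sparged through the medium reservoir to remove oxygen, the medium pump was stopped and 200 mM glucose was injected, and samples of 2 independent cultures were taken at each of 5, 10, 30, 60 and 120 min. Loss of oxygen and arrival of glucose came together in every pulsed culture, so their parts in a change cannot be told apart. Since the arrays read whole cultures, fewer cells with a transcript and less transcript per cell cannot be told apart either.

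The wall of yeast is a glucan network covered by mannoproteins, many of which reach it by way of a glycosylphosphatidylinositol (GPI) anchor. When oxygen is lost, cells are known to exchange this coat: the CWP proteins of aerobic walls give way to the DAN and TIR proteins. The DAN and TIR genes are kept silent in air by repressors that include Rox1 and Mot3 and are switched on without oxygen through the activator Upc2. TIR1, TIR3 and TIR4 are each known to be needed for growth without oxygen. Sfp1, the factor missing in the deletion strain, is best known for switching on genes for making ribosomes.

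Signals are linear array intensities, and values of 12 or less were set to 12 (the floor) before log2 was taken. A gene is called changed at a limma adjusted p under 0.05, adjusted over all 5369 genes. SFP1 was at or below the floor on all 13 deletion arrays and between 97.2 and 205.1 on the reference arrays. In 10 groups the correlation between replicates over all genes, taken as a description, was 0.970 to 0.993. In the deletion strain it was only 0.805 at 10 min and 0.796 at 30 min. Across those labels it was 0.978 for 10 min replicate 1 with 30 min replicate 2 and 0.922 for the remaining pair. These 4 arrays go against their time labels. They were kept out of the estimate of the replicate spread, and their mean against steady state, which does not depend on the time labels, is given beside each array's own value. Actin probe sets at the 5′ and 3′ ends, whose ratio drops in degraded RNA, gave ratios of 0.697 to 0.923 in the reference strain and 0.00322 to 0.968 in the deletion strain.

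At 120 min in the reference strain DAN1, TIR1, TIR2, TIR3 and TIR4 had risen, 5 of the 6 DAN and TIR genes, against 19.0% of all genes called higher. CWP1, CWP2 and SED1 had all fallen by then, against 37.5% of all genes called lower. The median log2 change was 3.52 over the DAN and TIR genes, -2.61 over CWP1, CWP2 and SED1 and -0.18 over all genes.

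DAN1 (YJR150C) encodes a wall mannoprotein that is made only without oxygen. Its signal was 1.5, 4.5 and 2.1 on the reference arrays at steady state and lay below the floor on all 6 arrays at 5, 10 and 30 min. At 60 min it was 13.8 and 7.7, and at 120 min 1118.1 and 952.1. Only the 120 min arrays stood clear of the floor, and they lay far above all others. The mean at 120 min was 1035 ± 117 (SD, n = 2), at least 86.0-fold over the floor (log2 6.43, SE 0.137, limma adjusted p = 2.8e-16). The step from 60 to 120 min alone was at least 80.2-fold. Groups set wholly to the floor show no spread, so the SE and adjusted p values of DAN1 overstate its precision.

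TIR1 (YER011W), one of the TIR genes required for anaerobic growth, was measured in air too. Its reference signals were 105.8, 148.9 and 101 at steady state, 103.2 and 130.7 at 5 min, 99.8 and 111.7 at 10 min, 167 and 155.6 at 30 min and 142 and 165.1 at 60 min. They reached 3160 and 2747.6 at 120 min, where no array overlapped with any earlier one. The rise at 120 min was 25.2-fold (log2 4.66, SE 0.199, adjusted p = 1.5e-12). A small rise of 0.47 on the log2 scale passed at 30 min (adjusted p = 0.043), and the value at 60 min, 0.39, did not (adjusted p = 0.095).

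TIR4 (YOR009W), likewise required without oxygen, was at 46.7, 63.1 and 53.4 at steady state and at 763.2 and 797.2 at 120 min, a 14.4-fold rise (log2 3.85, SE 0.361, adjusted p = 7.4e-08). In between, its signals were 34.1 and 33.7 at 5 min, 28.7 and 31.9 at 10 min, 66.5 and 33.3 at 30 min and 70.8 and 105.8 at 60 min. The arrays at 5 and 10 min lay below every steady state array, with log2 changes of -0.67 and -0.84 that did not pass (adjusted p = 0.29 and 0.068).

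TIR3 (YIL011W), required too, climbed in steps. Reference signals were 71.2, 56.8 and 82.8 at steady state, 60.8 and 91.6 at 5 min, 64.3 and 53.4 at 10 min, 129.1 and 107.8 at 30 min, 162.6 and 209.2 at 60 min and 645.8 and 623.8 at 120 min. From 30 min on, every array lay above every steady state array. The changes from steady state were 1.70-fold at 30 min (adjusted p = 0.0086), 2.66-fold at 60 min (adjusted p = 6e-05) and 9.14-fold at 120 min (adjusted p = 4.2e-09). Between 30 and 60 min the difference did not pass (log2 0.65, adjusted p = 0.073), whereas the step from 60 to 120 min did (log2 1.78, adjusted p = 7.8e-05).

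TIR2 (YOR010C), a paralog of TIR1, rose at least 2-fold by 30 min. Its signals were 73.1, 105.6 and 66.4 at steady state, 59.1 and 70.1 at 5 min and 60.4 and 55.7 at 10 min. They were 193.7 and 156.2 at 30 min, 179.2 and 204.1 at 60 min and 250.6 and 271.4 at 120 min, all above the steady state arrays. The log2 changes were 1.12 (SE 0.225, adjusted p = 0.00023), 1.26 (adjusted p = 9.4e-05) and 1.70 (adjusted p = 5.2e-06). After the step from 10 to 30 min (log2 1.58, adjusted p = 3e-05) neither later step passed. Of the 5 genes that rose, it had the smallest change at 120 min. Without the steady state array replicate 3, without the 30 min array replicate 1, or with the replicate number as a block, its 30 min change no longer met both criteria, and 60 min became its first such time.

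DAN4 (YJR151C), also described as an anaerobic wall protein, was not called above steady state at any time in either strain. Its reference signals were 87.8, 100.9 and 108.6 at steady state, 73.2 and 126 at 5 min, 64.8 and 66 at 10 min, 44.7 and 31.7 at 30 min, 60.5 and 68.5 at 60 min and 85.4 and 77.1 at 120 min. Arrays at 10, 30, 60 and 120 min all lay below the steady state arrays. The fall was 2.62-fold at 30 min (log2 -1.39, SE 0.236, adjusted p = 4.1e-05), when the median over all genes was -0.53. From 30 to 60 min it rose again 1.71-fold (adjusted p = 0.03). At 120 min the log2 change was -0.28 (95% interval -0.78 to 0.22, adjusted p = 0.33). The fall at 60 min, -0.62 as deposited (adjusted p = 0.029), became 0.07 when the arrays were scaled to a common median. Whether the DAN4 probe set reads only that transcript was not tested.

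**Figure D1:**
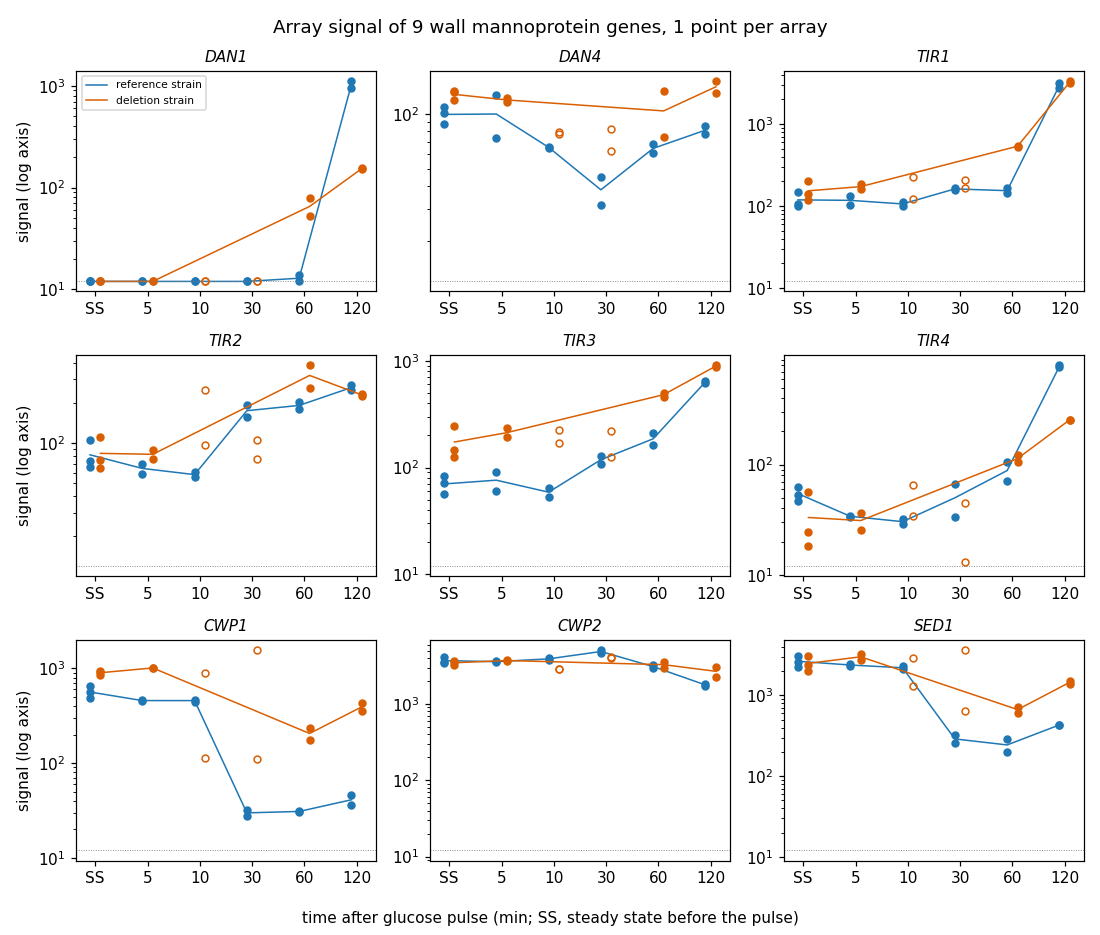
Array signal (log axis) of the 9 genes against time after the pulse, with 1 point per array, signals under 12 drawn at 12 (dotted line) and a line through the mean of each group. Blue is the reference strain, orange the deletion strain, and open circles are the 4 deletion arrays that go against their time labels and have no mean drawn. In the reference strain DAN1, TIR1 and TIR4 are highest at 120 min, CWP1 and SED1 drop between 10 and 30 min, and DAN4 is lowest at 30 min.

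CWP1 (YKL096W), a major mannoprotein of aerobic walls, was almost lost between 10 and 30 min. Reference signals were 486, 643.6 and 557.9 at steady state, 449.1 and 464.9 at 5 min and 467.5 and 445.9 at 10 min. They fell to 32 and 27.8 at 30 min, 31.4 and 30.5 at 60 min and 45.8 and 36.4 at 120 min. The early and late arrays were separated by a wide gap. The fall was 18.7-fold at 30 min (log2 -4.23, SE 0.147, adjusted p = 6.4e-14) and 13.7-fold at 120 min (adjusted p = 4.1e-13). At 5 and 10 min all 4 arrays lay below the steady state arrays, but the changes of -0.29 at each time did not pass (adjusted p = 0.26 and 0.12).

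SED1 (YDR077W), an abundant wall protein of stressed and stationary cells, fell over the same interval. Its signals were 2279.6, 3080.4 and 2596.1 at steady state, 2435.3 and 2332.9 at 5 min and 2294.9 and 2110.5 at 10 min. At 30 min they were 319.2 and 259.5, at 60 min 201.1 and 286.4 and at 120 min 427.8 and 435.9. The fall was 9.14-fold at 30 min (log2 -3.19, SE 0.181, adjusted p = 4e-11) and 11.0-fold at 60 min (adjusted p = 1.7e-11). From 60 to 120 min SED1 rose 1.80-fold again (adjusted p = 0.0035), while the corresponding value for CWP1, 1.32-fold, did not pass (adjusted p = 0.074).

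CWP2 (YKL096W-A), a small and abundant wall mannoprotein, followed another course. Its signals were 3436.4, 4145.8 and 3511.1 at steady state, 3537.4 and 3633 at 5 min and 3993.9 and 3806 at 10 min. They were 4623.6 and 5117.3 at 30 min, 2929 and 3246.5 at 60 min and 1743 and 1806.3 at 120 min. Only at 120 min did it fall at least 2-fold (2.08-fold, log2 -1.05, SE 0.123, adjusted p = 1.2e-06). At 30 min its change was 0.40 as deposited (adjusted p = 0.007) but -0.33 after quantile normalization (adjusted p = 0.0073), so its direction at that time depends on the scaling. Without the steady state array replicate 2 the fall at 120 min was under 2-fold.

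At 5 min none of the 9 genes was called in the reference strain, where 9.65% of all genes were. At 10 min DAN4 alone was called, lower, against 31.6% of all genes called lower. Its log2 change then was -0.59 (adjusted p = 0.048). At 30 min 4 were called higher and 3 lower, with 22.6% and 53.0% of all genes, and at 60 min 2 higher and 3 lower, with 22.0% and 43.8%. The median over all genes at 30 min moved from -0.53 as deposited to 0.00 with quantile normalization and 0.25 with a common median, so small changes at that time are relative to the scaling.

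Taking onset as the first time with a call and at least a 2-fold change, CWP1 and SED1 (lower), DAN4 (lower) and TIR2 (higher) began at 30 min in the reference strain, when 13.8% of all genes were called and at least 2-fold higher and 37.5% lower. TIR3 followed at 60 min (11.3% of all genes at least 2-fold higher), and DAN1, TIR1, TIR4 (higher, 6.24%) and CWP2 (lower, 20.0%) at 120 min. CWP1 and SED1 were thus low at sampled times before the large rise of DAN1, TIR1 and TIR4. The order of the DAN and TIR genes depends on the scaling: TIR3 moved to 30 min and TIR4 to 60 min with quantile normalization or a common median, and DAN4 then met the criteria at no time. With a common median TIR1 and CWP2 (higher) moved to 30 min too, while DAN1, TIR2, CWP1 and SED1 kept their onset under both scalings. Without a floor DAN1 moved to 60 min. With calls of any size TIR1 and TIR3 moved to 30 min, higher, as did CWP2, and DAN4 to 10 min, lower. Counting from the first time with at least 50% of the largest log2 change moved only TIR3, to 120 min. In the RefSeq table for the R64 assembly DAN1 and DAN4, TIR2 and TIR4, and CWP1 and CWP2 are neighbours with 0 genes between them. In the reference strain the neighbours in each of these pairs differed in onset or direction under the main settings. In the deletion strain TIR2 and TIR4 shared their onset, higher at 60 min.

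**Figure D2:**
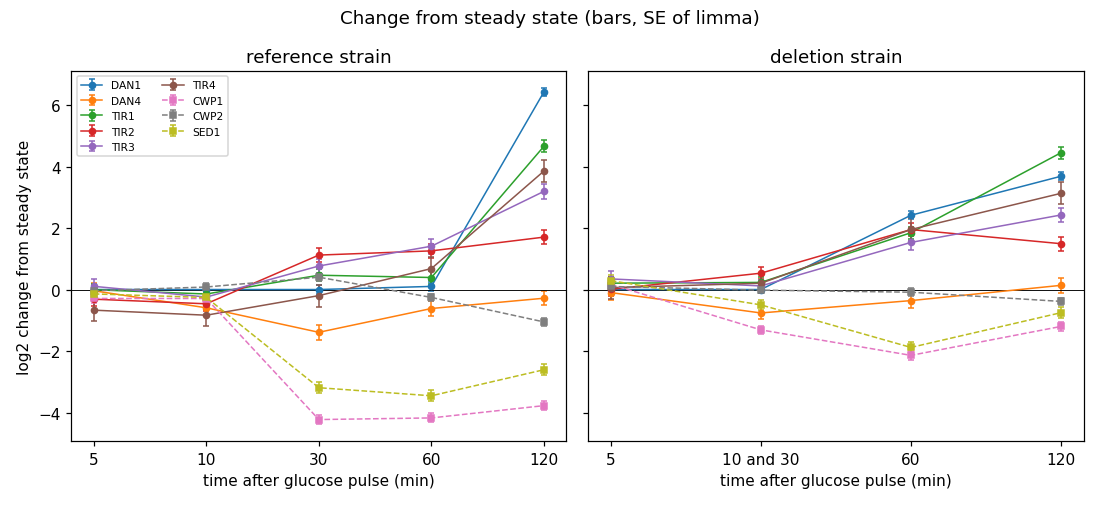
Log2 change from steady state against time after the pulse in the reference strain (left) and the deletion strain (right). Points are limma estimates with SE bars, circles with solid lines are DAN and TIR genes, squares with dashed lines are CWP1, CWP2 and SED1, and the deletion point at 10 and 30 min is the mean of 4 arrays. The SE of that point leaves out the spread among those 4 arrays. The reference curve of DAN1 stays at 0.10 at 60 min and reaches 6.43 at 120 min, while that of the deletion strain is at 2.42 and 3.68.

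Before the pulse the strains differed in 2 of the 9 genes, both higher in the deletion strain, against 18.3% of all genes called higher. TIR3 was at 126.5, 146.9 and 247.1 in the deletion strain, all above the reference arrays. It was 2.39-fold higher (log2 1.26, SE 0.216, adjusted p = 0.00076). CWP1 was at 849, 912.8 and 934, again above all reference arrays, and 1.61-fold higher (log2 0.68, SE 0.131, adjusted p = 0.0017). DAN1 was below the floor on all 3 deletion arrays at steady state. For SED1 and CWP2 the strain differences were -0.10 (95% interval -0.44 to 0.24) and -0.09 (-0.32 to 0.14). TIR4 was lower by 0.88 without passing (adjusted p = 0.053), and the arrays overlapped. With the spread taken from 12 groups as labelled, 1 of the 9 genes was called between the strains at steady state. The deletion array of steady state replicate 1 had a 5′ to 3′ actin ratio of 0.147, lower than any reference array. The part of RNA integrity in these differences was not tested.

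In the deletion strain none of the 9 was called at 5 min, with 6.84% of all genes called. At 60 min 5 of the DAN and TIR genes had risen, against 27.0% of all genes called higher, and CWP1 and SED1 had fallen, against 31.3% called lower. At 120 min the same 5 genes were called higher, with 19.9% of all genes, and CWP1, CWP2 and SED1 lower, with 22.2%. With the spread taken from 12 groups as labelled, the 3 lower calls were lost and the 5 higher ones stood. As in the reference strain, DAN4 was the exception: 133.8, 118.2 and 131 at steady state, 133.1 and 74.1 at 60 min and 151.6 and 129.4 at 120 min (log2 0.14 at 120 min, 95% interval -0.36 to 0.64).

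DAN1 was higher in the deletion strain than in the reference at 60 min and lower at 120 min. Its signals were 52.2 and 78.5 at 60 min and 153 and 155.2 at 120 min, with every earlier array below the floor. It rose at least 5.33-fold by 60 min (adjusted p = 7.8e-11) and at least 12.8-fold by 120 min (adjusted p = 3.8e-13). Here too, and for the strain differences below, the groups at the floor make SE and adjusted p too small. The deletion arrays exceeded both reference arrays at 60 min and lay below both at 120 min. The change in the deletion strain minus that in the reference was 2.31 at 60 min (SE 0.194, adjusted p = 5.9e-07) and -2.74 at 120 min (adjusted p = 3.8e-08). Because DAN1 was at the floor at steady state in both strains, both values are differences in level, 6.70-fold at 120 min. At 60 min the difference in level is a lower bound, since the floor stands in for 1 of the reference arrays. With a floor of 48 the difference at 60 min no longer passed, since that floor hides most of the signals. Whether DAN1 began earlier in 1 strain depends on the floor. Without a floor its onset was 60 min in the reference strain too. With a floor of 48 it was 120 min in the deletion strain, as in the reference.

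TIR1 was higher at 60 min in the deletion strain than in the reference, and the strains did not differ by a value that passed at 120 min. Deletion signals were 117.1, 138.7 and 203 at steady state, 184 and 160.2 at 5 min, 543.1 and 527.9 at 60 min and 3141.4 and 3361.7 at 120 min. The rise was 3.60-fold at 60 min (adjusted p = 4.4e-07), and the strain difference in change was 1.46 (SE 0.282, adjusted p = 0.0015). At 120 min that difference was -0.21 (95% interval -0.80 to 0.39, adjusted p = 0.64). Both deletion arrays at 60 min had lower actin ratios than any reference array (5′ to 3′ 0.247 and 0.598, middle to 3′ 0.560 and 0.579). The part of RNA integrity in the strain differences at 60 min was not tested.

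For the other TIR genes no difference between the strains in the change from steady state passed. TIR2 in the deletion strain was at 75.3, 65.6 and 110.4 at steady state, 260.2 and 382.8 at 60 min and 227.1 and 231.8 at 120 min, a change of 1.95 at 60 min and 1.49 at 120 min. TIR3 reached 502.9 and 459.4 at 60 min and 878.1 and 905.8 at 120 min, from its higher start, which is 5.37-fold over steady state (adjusted p = 2.9e-07). TIR4 was at 18.2, 24.3 and 56.7 at steady state, 104.8 and 122.3 at 60 min and 255.2 and 256.7 at 120 min, below both reference arrays at 120 min. Their differences between strains at 60 min were 0.69 for TIR2 (95% interval 0.02 to 1.37, adjusted p = 0.13), 0.12 for TIR3 (-0.60 to 0.85, adjusted p = 0.83) and 1.27 for TIR4 (0.19 to 2.35, adjusted p = 0.082). At 120 min they were -0.21, -0.77 and -0.72, with adjusted p of 0.68, 0.12 and 0.34.

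The fall of CWP1 was shallower in the deletion strain. After 1008.7 and 1008.9 at 5 min its signals were 234.3 and 176.8 at 60 min and 435.1 and 350.9 at 120 min, all above every late reference array. The log2 change was -2.14 at 60 min and -1.20 at 120 min, where the reference had -4.17 and -3.77. The strain differences in change were 2.03 (SE 0.208, adjusted p = 3.7e-06) and 2.57 (adjusted p = 2.3e-07). From 60 to 120 min CWP1 rose again in the deletion strain, 1.92-fold (adjusted p = 0.00032).

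SED1 differed between the strains in the same direction. Its deletion signals were 1999, 2383.6 and 3113 at steady state, 3288.2 and 2738.1 at 5 min, 726.4 and 610.5 at 60 min and 1513.1 and 1404.5 at 120 min. The late arrays lay above the corresponding reference arrays. The strain differences in change were 1.57 at 60 min (SE 0.256, adjusted p = 0.00036) and 1.85 at 120 min (adjusted p = 9.2e-05). When the spread was taken from all 12 groups as labelled, which includes the discordant arrays, the differences of CWP1 and SED1 did not pass at either time (adjusted p = 0.33 and 0.26 for CWP1, 0.21 and 0.18 for SED1), with the same estimates. That setting pools a larger spread into every comparison.

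For CWP2 the deletion signals were 3246.3, 3515.6 and 3638 at steady state, 2974.8 and 3571.3 at 60 min and 2283.3 and 3074.5 at 120 min. The fall at 120 min was 1.31-fold (adjusted p = 0.018), and the strain difference was 0.67 (SE 0.174, adjusted p = 0.012). It was called in 34 of 39 alternatives, was 0.22 with a common median (adjusted p = 0.55) and lost its call at 0.45 without the deletion array 120 min replicate 2. At 60 min the difference was 0.17 (95% interval -0.20 to 0.54). Counts over all 9 genes at 60 min were 4 differences called, all higher in the deletion strain, with 18.2% of all genes called in that direction. At 120 min 3 were called higher, with 15.2% of all genes, and DAN1 lower, with 4.34%. None was called at 5 min, with 0.522% of all genes.

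**Figure D3:**
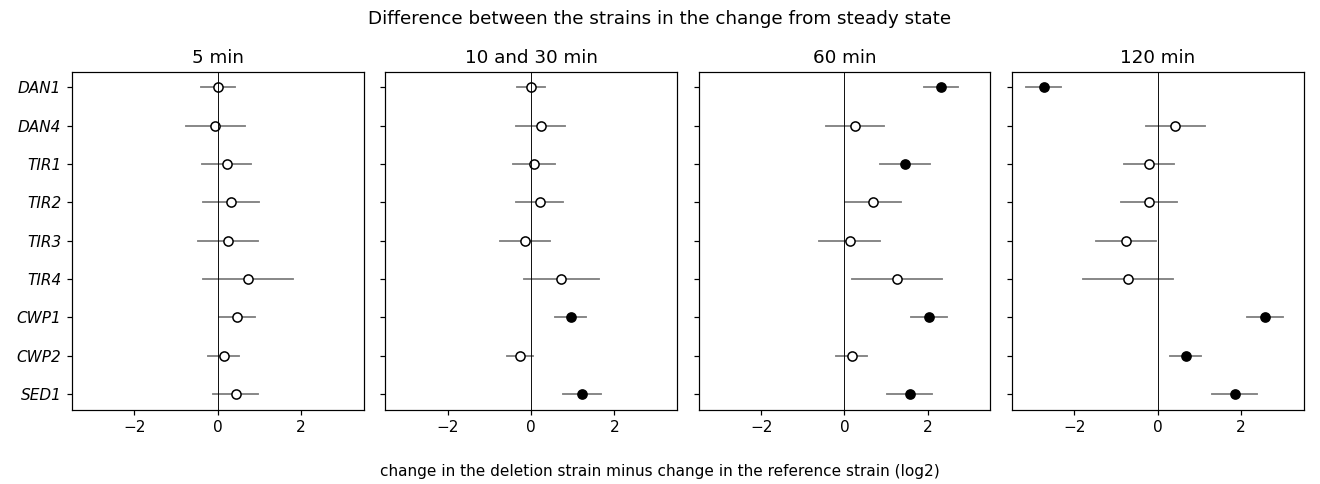
Change from steady state in the deletion strain minus that in the reference strain (log2), with 95% intervals, for each gene at 5 min, at 10 and 30 min together, at 60 min and at 120 min. Filled points are called at an adjusted p under 0.05. DAN1 lies at 2.31 at 60 min and -2.74 at 120 min, and CWP1 and SED1 lie above 0 in the last 3 panels.

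The 4 deletion arrays labelled 10 and 30 min gave CWP1 signals of 886.2 and 112.8 (10 min replicates 1 and 2) and 109.4 and 1565.2 (30 min replicates 1 and 2). SED1 was at 2936.7 and 1306.3, then 648.1 and 3672.5. In both genes 10 min replicate 1 and 30 min replicate 2 had the higher signals, and the other 2 arrays the lower ones. Middle over 3′ actin signal was 0.872 and 0.848 on the high arrays and 0.207 and 0.176 on the low ones, and the 5′ to 3′ ratio was 0.00322 on 30 min replicate 1. The part of RNA integrity in this split was not tested. TIR2 was at 96 and 251.2, then 75.6 and 106.4, and DAN1 below the floor on all 4. DAN4 was at 79.2 and 77.8, then 62.6 and 82.8, below every steady state array of its strain.

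For the mean of these 4 arrays, SE and adjusted p rest on the spread of the other groups. They leave out the spread among the 4 arrays themselves, which was wide for CWP1 and SED1. In that mean CWP1 fell by 1.31 on the log2 scale against steady state (SE 0.123, adjusted p = 9e-08). SED1 fell by 0.50 (adjusted p = 0.009) and DAN4 by 0.76 (adjusted p = 0.0031), against 43.8% of all genes called lower. TIR2 had 0.53 (adjusted p = 0.023), against 15.4% called higher. Single arrays decide the values of CWP1, SED1 and TIR2. CWP1 had -0.35 without 30 min replicate 1 and -2.27 without 30 min replicate 2, and SED1 had 0.13 without 30 min replicate 1. TIR2 had 0.18 without 10 min replicate 2, the array at 251.2, and was then not called. DAN4 stayed between -0.86 and -0.66 when single arrays were left out. For CWP1 and SED1 the difference from the mean of the 4 reference arrays at 10 and 30 min was 0.95 (adjusted p = 0.00051) and 1.23 (adjusted p = 0.00033), against 22.3% of all genes called higher. Without 30 min replicate 2 it was -0.01 for CWP1 and 0.60 for SED1, neither called. Under the labels DAN4 (-0.70, adjusted p = 0.042) and TIR2 (0.93, adjusted p = 0.038, again with that array) were called at 10 min, with 25.9% of all genes lower and 6.74% higher. At 30 min DAN4 alone was called (-0.82, adjusted p = 0.021), with 23.4% of all genes lower. With replicate 2 left out at both labels, 0 genes were called at 10 min and 4 at 30 min, all lower, with 31.3% and 56.8% of all genes called in either direction.

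In the deletion strain the onset was 60 min for DAN1, TIR1, TIR2, TIR3 and TIR4 (higher, with 8.85% of all genes at least 2-fold higher) and for SED1 (lower, 18.2%). CWP1 fell first in the mean of the arrays labelled 10 and 30 min (17.3% of all genes lower). CWP2 and DAN4 met the criteria at no time. These onsets depend on the criterion and the settings. With calls of any size TIR2 and SED1 moved to the arrays labelled 10 and 30 min, as did DAN4 (lower), and CWP2 began at 120 min. By at least 50% of the largest change TIR1 moved to 120 min, and with a floor of 48 DAN1 did. With a common median or 12 groups as labelled CWP1 moved to 60 min. The deletion strain has no 30 min value of its own, so its onsets cannot be set against the 30 min onsets of the reference strain. The onset of CWP1 became 60 min without 10 min replicate 2 or without 30 min replicate 1. Without 30 min replicate 2 that of SED1 moved to the arrays labelled 10 and 30 min, lower.

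Among 10 regulators of oxygen-dependent genes, 4 were higher and 3 lower in the reference strain at 120 min, when 19.0% and 37.5% of all genes were, with a list median of 0.12 against -0.18 over all genes. ROX1, the repressor of hypoxic genes, had 38.37 ± 13.1 at steady state (n = 3), 93.8 ± 39.9 at 5 min (n = 2) and fell below the floor on every array at 30, 60 and 120 min. Its loss of at least 3.05-fold at 120 min passed (adjusted p = 0.00019), and so did its rise at 5 min (log2 1.29). In the deletion strain ROX1 fell from 44.23 ± 1.75 to 22.35 ± 0.778 at 120 min (log2 -0.98, adjusted p = 0.014), and the strain difference in change did not pass (0.63, adjusted p = 0.32). MOT3, another repressor of DAN and TIR genes, lay near the floor at steady state (18.13 ± 2.11) and below it at 120 min (at least 1.50-fold lower, adjusted p = 2e-05).

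UPC2, the activator of DAN, TIR and sterol uptake genes, was below the floor at steady state and at 19.35 ± 2.76 at 120 min (at least 1.60-fold, adjusted p = 0.019). Its paralog ECM22 reached 304 ± 0.212 at 60 min from 123.8 ± 22.0 and was at 189.8 ± 26.7 at 120 min (log2 0.62, adjusted p = 0.002). MGA2, an activator of the fatty acid desaturase gene, rose to 85.05 ± 1.63 (log2 0.62, adjusted p = 0.0033), and its paralog SPT23 fell (log2 -0.62, adjusted p = 0.0036). HAP1, the heme-dependent activator, had 0.77 (adjusted p = 0.043) on a probe set of a repeated family. SUT1, linked to sterol uptake, and the corepressor genes TUP1 and CYC8 had 0.03, 0.21 and -0.14, none of which passed.

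Of the 24 seripauperin genes (PAU1 to PAU24, of which PAU23 and PAU24 are also called DAN2 and DAN3), small relatives of the TIR genes, 10 have a probe set of their own, and near-identical copies may share its signal. At 120 min 3 were higher and 2 lower, with a median of 0.16 and the same shares of 19.0% and 37.5% over all genes, which also apply to the lists that follow. PAU4 rose 3.79-fold, PAU10 3.72-fold and PAU13 2.52-fold. At 30 min 6 of the 10 were lower, near the 53.0% of all genes. The other wall lists had medians at 120 min of 0.13 for 16 further GPI wall proteins, -0.08 for 5 PIR proteins and 0.13 for 13 enzymes of wall polysaccharides, against -0.18 over all genes. Of the GPI proteins 6 were higher and 2 lower, with the chitin-glucan crosslinking enzyme UTR2 at 4.34-fold, the agglutinin anchor AGA1 at 1.88-fold and the daughter cell gene DSE2 at 1.66-fold. PIR3 fell 2.47-fold and PIR1 rose 1.29-fold. The polysaccharide enzymes had 4 higher and 4 lower, among them GSC2, a glucan synthase subunit (3.21-fold lower), SMI1, a regulator of glucan synthesis (1.69-fold lower), and the glucanase gene SCW4 (1.67-fold higher). At 30 min the GPI proteins had 5 higher and 7 lower (lowest log2 change -2.38). The PIR proteins had 0 and 2 (lowest -2.06) and the enzymes 7 and 3 (lowest -3.35). Over all genes 22.6% were higher and 53.0% lower. Large falls by 30 min were thus not confined to CWP1 and SED1.

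**Figure D4:**
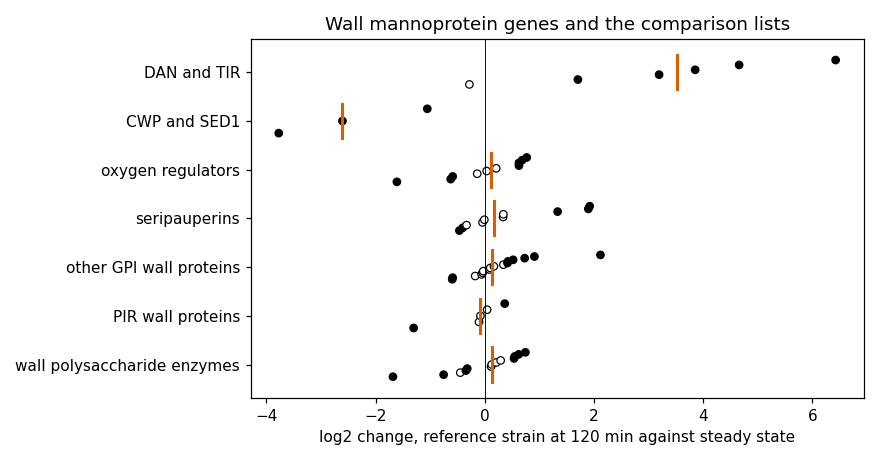
Log2 change of the reference strain at 120 min against steady state for the DAN and TIR genes, CWP1, CWP2 and SED1 and the 5 comparison lists, with 1 point per gene, filled where called at an adjusted p under 0.05. Orange bars are list medians, 3.52 for the DAN and TIR genes, -2.61 for CWP1, CWP2 and SED1 and between -0.08 and 0.16 for the other lists.

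Over the 13 reference arrays, which share the same scaling, the log2 signals of DAN1 and TIR1 correlated at 0.99. That value rests on the 120 min arrays, since DAN1 was at or near the floor on every earlier reference array. CWP1 and SED1 correlated at 0.99, while CWP1 and CWP2 correlated at 0.30. DAN4 correlated with the other DAN and TIR genes at values between -0.34 (TIR2) and 0.14 (DAN1 and TIR4). Outside the 9 genes, the patterns most like the mean of the DAN and TIR genes were those of YCR102C (r = 0.974), HUG1 (r = 0.970) and ATF2 (r = 0.965). YCR102C had 34.5 ± 1.74 at steady state and 216.8 ± 37.7 at 120 min, and the acetyltransferase gene ATF2 had 23.63 ± 2.36 and 135.8 ± 3.39. HUG1 was below the floor on every reference array before 120 min (9.90 ± 1.25 at steady state, 14.7 ± 0.141 at 120 min), so its coefficient rests on the 120 min arrays just above the floor. The patterns most like CWP2 were those of CUP9 (r = 0.924), MCH4 (r = 0.923) and SAH1 (r = 0.912). CUP9, for example, was at 356.2 ± 42.1 at steady state, 509.8 ± 14.1 at 30 min and 213.7 ± 6.93 at 120 min.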

How the data were processed

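The files hold 1 linear intensity for each probe set and array, as deposited. GCOS, the Affymetrix array software, is the tool named in the submitters' processing notes. How it computed and scaled the values, and in which version, is not given in the sources used here. A 2% trimmed mean lay between 150.1 and 150.2 on every array, so no further scaling was applied. Symbols came from the platform annotation, updated through the RefSeq R64 gene table. Each gene was read from 1 probe set, that of highest mean log2 signal, signals under 12 were set to 12, and genes above 12 on at least 2 arrays were kept (5369 of 5656).

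All 26 arrays were fitted with limma 3.58.1 (R 4.3.3), using lmFit and eBayes with trend. The 4 deletion arrays labelled 10 and 30 min each had a coefficient of their own, leaving 12 residual degrees of freedom. Changes under those labels came from a fit of 12 groups. Tests were two-sided, with Benjamini-Hochberg adjustment over all genes. The number of arrays limits the precision. The procedure was tested on simulated data. Alternatives changed scaling, floor, filter, probe set, trend, grouping, covariates and single arrays. The step from 60 to 120 min in the deletion strain was added after seeing the data. Figures used matplotlib 3.10.9. The 9 genes and all lists were chosen with earlier results of these data known. The 9 genes are all named, all 10 regulators, and from each other list up to 3 called genes with the largest change at 120 min in the reference strain. Likeness names the 3 highest Pearson correlations with the DAN and TIR mean and with CWP2.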

Additional observations from a re-analysis of the deposited data

Results flagged for a closer look

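The change from steady state differed between the strains, by the strain by time term of limma, in 10 gene and time combinations. DAN1 had 2.31 at 60 min and -2.74 at 120 min (deletion strain minus reference, log2). TIR1 had 1.46 at 60 min. CWP1 had 0.95 for the arrays labelled 10 and 30 min together, 2.03 at 60 min and 2.57 at 120 min, and SED1 had 1.23, 1.57 and 1.85 at those times. CWP2 had 0.67 at 120 min. With DAN1 at the floor at steady state in both strains, its value at 60 min is a lower bound for the difference in level. Its SE is made small by the groups at the floor. Of these, 2 were called in all 39 alternatives, DAN1 at 120 min (-3.28 to -2.60) and TIR1 at 60 min (1.05 to 1.78). DAN1 at 60 min (0.41 to 2.65), CWP1 at 60 min (1.35 to 2.24) and 120 min (2.10 to 2.74) and SED1 at 60 min (1.17 to 1.83) and 120 min (1.41 to 2.04) were each called in 38. SED1 at 10 and 30 min (0.60 to 1.85) was called in 37 and CWP2 at 120 min (0.22 to 1.02) in 34. CWP1 at 10 and 30 min (-0.01 to 1.91), whose sign turned without 30 min replicate 2, was called in 36. Most of the 39 alternatives left out a single array. The setting that lost CWP1 and SED1 at 60 and 120 min was that of 12 groups as labelled, which includes the spread of the discordant arrays. Its limma adjusted p values were 0.33 and 0.26 for CWP1 and 0.21 and 0.18 for SED1. At 10 and 30 min it called 0 differences.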

How the results depend on the processing

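Of 260 counts of called genes among the 9 recomputed under other settings, 234 stayed within 1.5 times. With quantile normalization 1 gene was called from 30 to 60 min in the reference strain and 0 in the deletion strain at 30 min as labelled, and CWP2 had -0.334 at 30 min and also -0.334 from 10 to 30 min. With a common median the deletion strain had 1 call at 10 min and 2 at 30 min as labelled, DAN4 had 0.074 and CWP2 0.434 at 60 min in the reference strain, and CWP2 had 0.413 in the deletion arrays of 10 and 30 min. At 10 min in the reference strain 0 genes were called with no filter or with 12 groups, and 2 with the highest group mean over 96 or only the groups compared. With 12 groups as labelled the calls were 5 for the deletion strain at 120 min (all higher), 1 for its arrays of 10 and 30 min, 1 between strains at steady state, 1 from 30 to 60 min, and 2, 1 and 0 for the strain differences at 60 min, at 120 min and at 10 and 30 min. With only the groups compared there were 2 for the deletion arrays of 10 and 30 min and 0 at either label or from 30 to 60 min. With the prefix of the array code as a covariate DAN1 had 0.294 in the deletion arrays of 10 and 30 min, and 1 gene was called at 10 min as labelled. The cause of these shifts was not tested.

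Leaving out arrays gave 0 to 1 calls at 10 min in the reference strain, 0 to 1 from 5 to 10 min and 1 to 4 from 30 to 60 min. It gave 2 to 5 for the deletion arrays of 10 and 30 min, 0 to 3 at 10 min and 0 to 4 at 30 min as labelled, and 0 to 3 for the strain difference at 10 and 30 min. In those arrays SED1 ran from -1.125 to 0.126, and the strain difference of CWP1 from -0.012 to 1.908. The count at 120 min in the reference strain was 8 each time 1 array was left out.

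Replicate numbers were not taken to pair the cultures, since not every pair of groups exceeded the required 0.1: deviations of same-numbered arrays correlated over it in 8 of 15 pairs of reference groups and 2 of 6 of the deletion strain. Among the reference groups after the pulse all 10 pairs were positive (0.07 to 0.272) and 7 exceeded 0.1. Pairing among these groups is therefore not settled by that rule, and the steps between times treat their arrays as independent. With the replicate number as a block 2 genes were called at 10 min and 4 from 30 to 60 min (3 higher, 1 lower) in the reference strain. In the deletion strain 1 and 0 were called at 10 and 30 min as labelled. The onset of TIR2 in the reference strain became 60 min.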

Other observations

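HAP1 is read by several probe sets, and they differ. The one used, of a repeated family, had 701 ± 242 at steady state (n = 3) and 1159 ± 211 at 120 min (n = 2) in the reference strain. The probe set of HAP1 outside that family had 160.2 ± 24.8 and 198.2 ± 2.55, and 57.1 ± 11.9 in the deletion strain at steady state.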
